A study of Homo sapiens with 8 samples.

Results

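The genes described here encode the subunits of the mitochondrial oxidative phosphorylation machinery that are carried in the nucleus. They were picked by name from the expression table: symbols beginning NDUF followed by A, B, C, S or V and a number (complex I), the SDH genes (complex II), UQCR and CYC1 (complex III), COX4 to COX8 (complex IV), ATP5 (complex V) and CYCS, the gene of cytochrome c. The names matched 94 rows. Of these, 8 were set aside: the pseudogenes ATP5EP2 and UQCRBP1, 2 readthrough transcripts, 2 antisense transcripts, and ATP5S and ATP5SL, which encode no subunit. A further 6 averaged under 1 FPKM as deposited. That left 80 genes of the 12013 tested and of 25337 in the table: 36 of complex I, 4 of complex II, 10 of complex III, 14 of complex IV, 15 of complex V and CYCS. NDUFA4 and its relative NDUFA4L2 carry a complex I name and were placed with complex IV, where the NDUFA4 protein is known to sit. The member nearest above the FPKM limit was COX4I2, at a mean of 1.32, and the nearest below it was COX6B2, at 0.144.

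The RNA came from NCI-H82, a human small cell lung cancer cell line, here with a doxycycline-switched RB1 gene on the pTripZ vector. The 4 groups were pRB+ cells with AZD2811, pRB+ control cells with DMSO, pRB- cells with AZD2811, and pRB- control cells with DMSO, with 2 libraries each. The pRB+ cells had 0.5 µg/mL doxycycline for 96 h and the pRB- cells had none; AZD2811, which blocks the Aurora B kinase of dividing cells and which the sample titles call AZD1152, was given at 32 nM for the last 48 h. All cells carried the vector and only pRB+ cells received doxycycline, so a change due to doxycycline itself cannot be told apart from one due to pRB. The 2 replicates of a group are named biological in the series text, with no word on separate cultures, so a p-value measures only how far these libraries spread, which may be technical.

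Oxidative phosphorylation couples electron transport to the making of ATP in the inner mitochondrial membrane. Complexes I and II pass electrons from NADH and succinate to ubiquinone, complex III passes them to cytochrome c, complex IV hands them to oxygen, and the proton gradient built on the way drives ATP synthase, complex V. A few hydrophobic subunits are encoded by mitochondrial DNA and were not analysed here; the nuclear genes are known to be driven by factors such as NRF1, the GABP proteins of the ETS family, the oestrogen-related receptors and YY1. The protein pRB binds E2F transcription factors and restrains entry into the cell cycle.

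Depth was estimated at 23300000 to 33500000 fragments per library, from the steps that 1 fragment makes in the lowest values. At 10 FPKM as deposited in a transcript of 500 nucleotides this gives a counting error of 7.73% to 9.26%. RB1 ranged from 6.36 to 7.67 scaled FPKM in the 4 pRB+ libraries and from 0.801 to 0.95 in the 4 pRB- libraries, so each library matched that part of its label. All 7 markers chosen for the small cell lung cancer line were present, at means of 15.2 to 360 scaled FPKM. They were NEUROD1, INSM1, SYP, CHGA, NCAM1, UCHL1 and MYC. Of 8 markers of other cell types, 7 averaged under 1 scaled FPKM; the exception, CD68, averaged 3.33. The 8 together summed to 2.8 to 4.09 scaled FPKM in pRB+ libraries and 3.15 to 5.25 in pRB- libraries, and their part in the results was not tested. Replicate 1 of pRB+ AZD2811, replicate 2 of pRB+ control and replicate 1 of pRB- AZD2811 stood apart: RMRP, a small RNA without a poly(A) tail, measured 5793 to 14000 scaled FPKM in these 3 and 21.2 to 165 in the other 5.

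The subunit genes did not stand at the same level in these libraries. In the 3 libraries rich in RNA without poly(A) tails, 75 of the 80 averaged lower than in the other 5, with a median log2 difference of -0.15, against -0.02 over all genes tested, of which 55.8% were lower. For 72 of the 80, the lowest of the 8 values was in 1 of these 3 libraries, for 41 in pRB+ AZD2811 replicate 1 and for 28 in pRB- AZD2811 replicate 1. The third, pRB+ control replicate 2, had a median over the 80 of -0.02 relative to the mean of all libraries, near the -0.0036 and 0.00042 of the pRB+ libraries that were not rich. The median was -0.15 in both the shorter and the longer members, parted by the median length of their annotated transcripts. The subunit genes took 2.33% to 2.78% of the summed FPKM in these 3 libraries and 2.87% to 3.01% in the other 5. With small RNA and histone genes left out of the sum, the shares overlapped, at 3.13% to 3.25% in the 3 and 3.13% to 3.39% in the other 5. Of the 3 rich libraries, 2 were AZD2811 and 1 control, and 2 were pRB+ and 1 pRB-; medians and calls of the 4 against 4 comparisons are therefore also given without them.

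Levels are given as scaled FPKM, fragments per unit of transcript length and sequencing depth divided by a factor per library that lines up the bulk of genes. The value is per length, so levels of different genes can be compared only roughly. The lengths behind the FPKM are not given, and most members are short by the measure below. The 80 genes had a median level of 88.6 scaled FPKM, against 8.15 over all genes tested, and 77 of them lay above that overall median. Of the 80, 59 were among the top 10% of genes, above 46.2 scaled FPKM. A gene's length was taken as the median over its protein-coding transcripts in GENCODE 29, with no filter for full-length ones. It can therefore fall short of the transcript in use. By this measure the members had a median of 713.5 nucleotides, against 1811 for tested genes with a length. It was under 1000 nucleotides for 62 of 80, as for 25.2% of tested genes. The coefficient of variation over the 8 libraries had a median of 8.58%, against 10.7% over all genes tested.

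**Figure D1:**
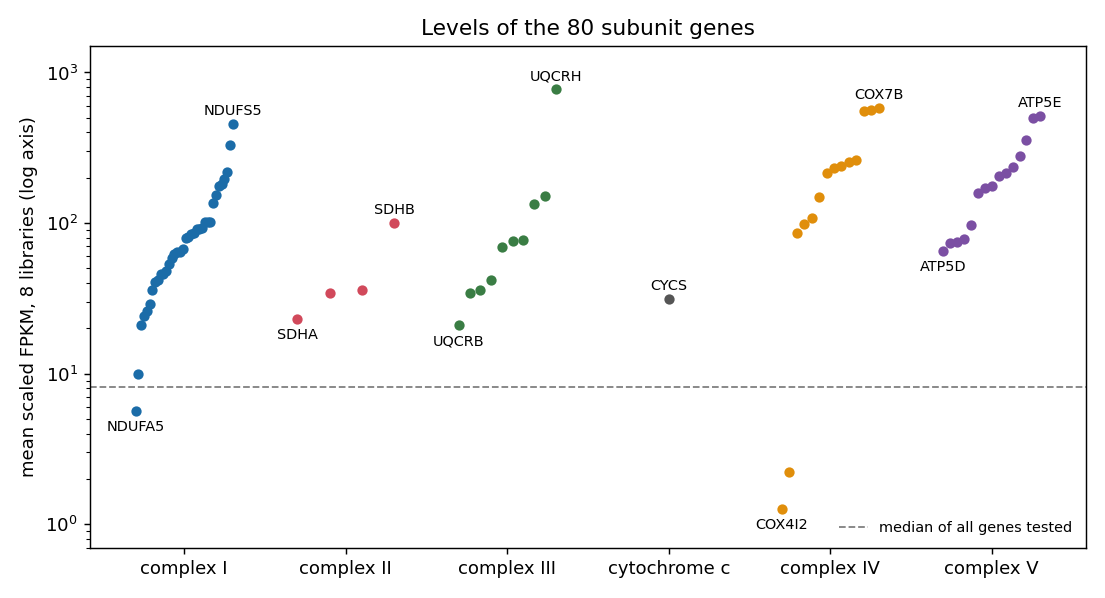
Mean scaled FPKM over 8 libraries (log axis) of each of the 80 subunit genes, 1 point a gene, sorted by level within each complex; the dashed line is the median of all genes tested, 8.15. Complexes IV and V hold the highest medians, 222 and 175, and COX4I2, NDUFA4L2 and NDUFA5 lie below the line.

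The highest level was that of UQCRH, the hinge protein of complex III, at 774.5 scaled FPKM. COX7B and COX7C, small subunits of complex IV, followed at 585 and 567. COX4I2, an isoform of subunit 4 known from lung, was lowest at 1.26 scaled FPKM, below NDUFA4L2 at 2.21 and NDUFA5, a complex I subunit, at 5.65. The ranges of UQCRH over the libraries, 659 to 858, and of COX7B, 533 to 639, did not meet, while those of COX7B and COX7C, 445 to 669, overlapped.

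The median level was 73.4 scaled FPKM in complex I, 35.2 in complex II, 72.3 in complex III, 222 in complex IV and 175 in complex V. Within complex I, the 7 catalytic core genes, which carry the flavin and the iron-sulfur clusters, ranged from 25.99 to 67.5 scaled FPKM with a median of 58.4. The 29 accessory genes ranged more widely, from 5.65 to 454.5, with a median of 85.6. The mRNA of SDHB, the iron-sulfur subunit of complex II, averaged 99.5 scaled FPKM, above the flavoprotein gene SDHA at 23.0 and the membrane anchors SDHC at 34.2 and SDHD at 36.1. The level of SDHA is uncertain, since fragments may have been split between it and its pseudogene copies, described below. UQCRHL, at 151 scaled FPKM, is a near-identical copy of UQCRH, so how fragments were split between the 2 is uncertain.

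Of paired isoforms, the form used in most tissues carried nearly all of the signal. COX4I1 averaged 231 scaled FPKM against 1.26 for COX4I2, and its lowest library, at 201, lay far above the highest of COX4I2, at 2.25. COX6A1 averaged 554 and COX7A2 149 scaled FPKM, while COX6A2 and COX7A1, the forms of heart and skeletal muscle, were listed at 0 in all 8 libraries. COX6B1 averaged 241 scaled FPKM and COX6B2, known from testis, 0.147; COX8A averaged 253 and COX8C 0.0801. COX7B averaged 585 and COX7B2 0.0181, and ATP5L averaged 73.3 and ATP5L2 0.055. COX7A2L, a relative of COX7A2 that acts in joining complexes, averaged 99.0. NDUFA4 averaged 86.5 scaled FPKM and its paralog NDUFA4L2, known to respond to low oxygen, 2.21.

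Subunit c of ATP synthase comes from 3 genes that encode the same mature protein. ATP5G2 supplied 57.7% and 60.0% of their summed scaled FPKM in pRB+ AZD2811 libraries and 56.4% and 61.3% in pRB+ control libraries, against 62.3% and 61.4% in pRB- AZD2811 libraries and 62.4% and 61.4% in pRB- control libraries. The share of ATP5G1 was 26.2% to 30.02% in pRB+ libraries and 24.4% to 26.2% in pRB- libraries. The ATP5G2 share was lower in each of the 4 pRB+ libraries than in each pRB- library, with 61.32% and 61.38% at the nearest pair, and no test was run on the shares.

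The first comparison asks what the return of pRB did to these genes, with 4 pRB+ against 4 pRB- libraries and AZD2811 as a second term. Most of the subunit genes had small negative differences, of the size of the spread between replicates. The median log2 difference over the 80 was -0.08, against -0.01 over all genes tested, and 63 of 80 were negative, against 52.0% of all genes. The SD of the member median between replicates was 0.0865, and the medians per library overlapped: pRB+ libraries spanned -0.15 to 0.00042, pRB- libraries -0.11 to 0.15. With scaling by summed FPKM the median was -0.03, with 49 of 80 negative, where that of all genes was 0.04. Of the 80, 2 fell and 0 rose (limma, adjusted p under 0.05), SDHA and NDUFB4, where 5.81% of all genes fell and 5.35% rose. The share of members that fell, 2 of 80, was below that background. Unadjusted p was under 0.05 for 15 genes that were lower and 1 that was higher, where 16.9% and 15.6% of all genes were. The 4 pRB+ values lay wholly below the 4 pRB- values for 3 genes and wholly above them for 2, against 11.2% and 10.7% of all genes. In bulk RNA, fewer cells expressing a gene and less RNA per cell cannot be told apart.

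**Figure D2:**
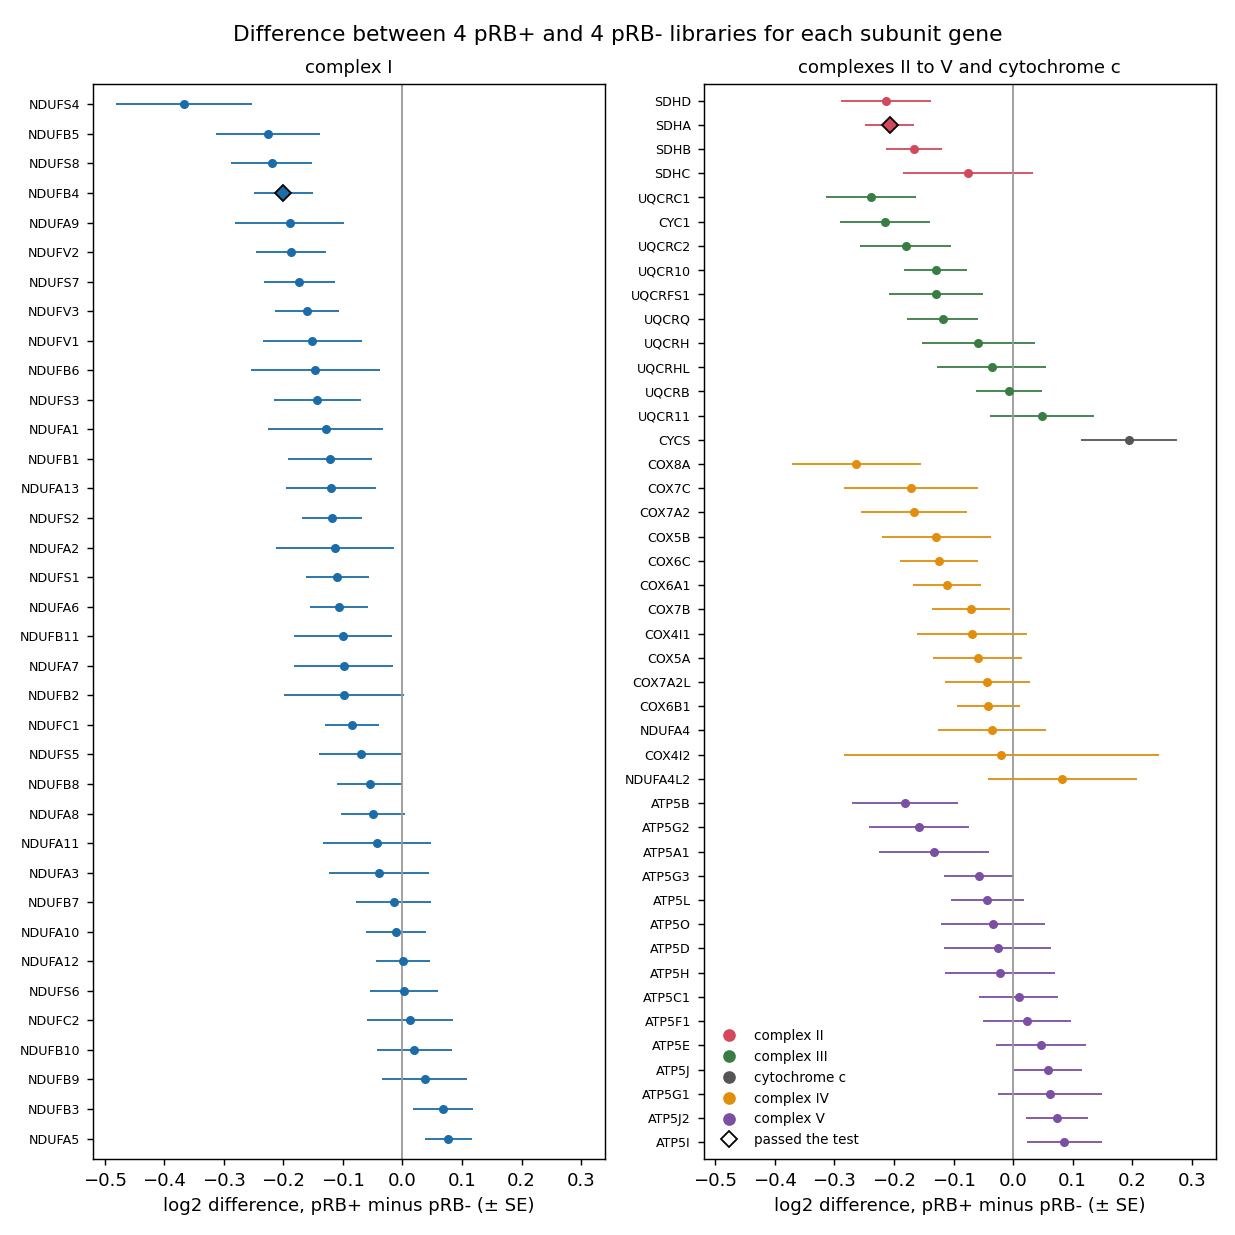
Log2 difference between 4 pRB+ and 4 pRB- libraries with its standard error for each subunit gene, complex I on the left and the others on the right, sorted within each complex; black-edged diamonds mark the 2 genes that passed the test, SDHA and NDUFB4. Points lie left of 0 for 29 of 36 genes of complex I, 4 of 4 of complex II, 9 of 10 of complex III, 13 of 14 of complex IV and 8 of 15 of complex V.

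Both calls depended on the set of libraries. With each library left out in turn, no member passed in 6 of the 8 fits: those without pRB+ AZD2811 replicate 1, either pRB+ control library, pRB- AZD2811 replicate 1 or either pRB- control library. Over all genes 1341 passed with the 8 libraries, while 1 or 2 passed in 5 of these 6 fits and 469 without pRB+ control replicate 2. SDHA alone passed without pRB- AZD2811 replicate 2, and 5 genes passed without pRB+ AZD2811 replicate 2, namely SDHA, NDUFB4, NDUFS4, NDUFS7 and UQCRC1. The calls over all genes in these last 2 fits are not given here, so the member counts have no background share beside them. The median of the members stayed negative, from -0.13 without pRB- AZD2811 replicate 1 or pRB+ AZD2811 replicate 2 to -0.04 without pRB- AZD2811 replicate 2. Without the 3 libraries rich in RNA without poly(A) tails the median was -0.09, with 66 of 80 negative and 0 called; by complex it was -0.09 in I, -0.20 in II, -0.10 in III, -0.10 in IV and -0.02 in V. With a term for these libraries it was -0.06, with 58 of 80 negative and 4 called, SDHA, NDUFB4 and UQCRC1 lower and CYCS higher. The shares of all genes called and negative in that fit are not given here, so these counts cannot be read against a background.

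The stretches before the transcription start of the 2 genes that passed the pRB test are shown because both hold several copies of a single motif. They are the 250 bases before the start listed by RefSeq on GRCh38.p14, plus strand: SDHA at chr5:218070-218319 and NDUFB4 at chr3:120596086-120596335. Capitals mark matches to the NRF1 motif, GCGCA, any 1 base, then GCGC; the last of NDUFB4 runs past the start and is shown only up to it.
SDHA: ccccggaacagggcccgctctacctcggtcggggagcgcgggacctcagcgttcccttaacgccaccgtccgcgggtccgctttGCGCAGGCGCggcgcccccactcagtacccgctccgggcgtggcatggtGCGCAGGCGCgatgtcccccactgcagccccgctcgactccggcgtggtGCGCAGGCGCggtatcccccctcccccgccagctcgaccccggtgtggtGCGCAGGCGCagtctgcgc
NDUFB4: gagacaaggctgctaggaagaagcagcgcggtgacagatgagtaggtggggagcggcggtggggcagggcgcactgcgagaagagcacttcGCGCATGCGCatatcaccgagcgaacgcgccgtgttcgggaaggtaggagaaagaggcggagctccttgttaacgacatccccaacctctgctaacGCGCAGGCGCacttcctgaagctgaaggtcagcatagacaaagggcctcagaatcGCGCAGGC
SDHA held 4 copies, each starting 49 bases after the one before, and NDUFB4 held 3. Of the 9375 tested genes with a listed promoter, 2.37% held 2 or more copies, 0.459% held 3 or more and 0.096% held 4 or more. Among the subunit genes, 6 of 64, or 9.38%, held 2 or more; the other 4, with 2 copies each, were NDUFA3, NDUFA8, UQCR11 and ATP5I, which did not pass. Their log2 pRB differences were -0.04, -0.05, 0.05 and 0.09 in that order. The 2 copies of NDUFA8 start 6 bases apart and so overlap. Overlapping matches were counted as separate copies in all genes. A match describes these letters and does not show that a factor binds there.

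Complex II had the most negative median of the complexes, -0.19 in log2, and all 4 of its genes were negative. SDHA, the flavoprotein that oxidises succinate, measured 21.3 and 20.95 scaled FPKM in pRB+ AZD2811 cells and 20.9 and 21.9 in pRB+ control cells, against 23.7 and 24.0 in pRB- AZD2811 cells and 26.1 and 25.1 in pRB- control cells. Each pRB+ library was below each pRB- library. The means were 21.3 ± 0.438 in pRB+ and 24.7 ± 1.07 in pRB- cells (SD, n = 4 each), and the log2 difference was -0.21 ± 0.04 (SE; limma adjusted p = 0.0308). The adjusted p was 0.194 without the 3 rich libraries, with a log2 difference of -0.24, and 0.0596 in a fit of the 4 group means. SDHA has pseudogene copies in the table, SDHAP1, SDHAP2 and SDHAP3, which together held 21.8 to 29.2 scaled FPKM in pRB+ libraries and 21.6 to 32.7 in pRB- libraries, so the split of fragments between the copies is uncertain.

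The iron-sulfur gene SDHB measured 91.2 and 90.0 scaled FPKM in pRB+ AZD2811 cells and 99.7 and 94.0 in pRB+ control cells, against 97.5 and 104 in pRB- AZD2811 cells and 113 and 107 in pRB- control cells. One pRB+ library, control replicate 1, reached above the lowest pRB- library, and the log2 difference was -0.17 ± 0.05 (SE; limma adjusted p = 0.0614). For the anchor SDHD the values were 29.01 and 33.5 in pRB+ AZD2811 cells and 36.1 and 34.9 in pRB+ control cells, against 32.0 and 39.3 in pRB- AZD2811 cells and 41.7 and 42.8 in pRB- control cells. Its groups overlapped through the low pRB- AZD2811 replicate 1, a library rich in RNA without poly(A) tails, and the log2 difference was -0.21 ± 0.08 (SE; limma adjusted p = 0.103). The other anchor, SDHC, differed least, by -0.08 ± 0.11 in log2, with values of 28.7 to 36.5 in pRB+ and 28.3 to 38.2 in pRB- cells.

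**Figure D3:**
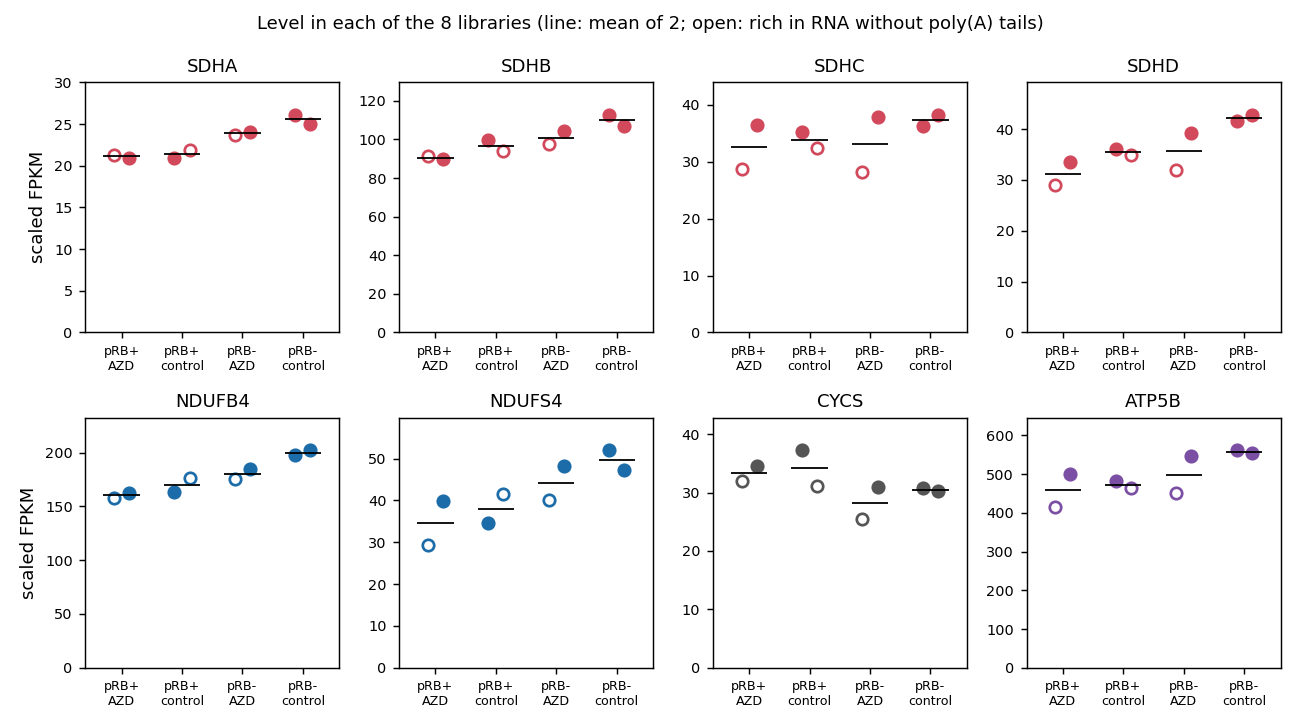
Scaled FPKM (axis from 0) of the 4 complex II genes, NDUFB4, NDUFS4, CYCS and ATP5B in each of the 8 libraries, by group; lines are means of 2 libraries and open points are the 3 libraries rich in RNA without poly(A) tails. SDHA lies between 20.9 and 21.9 in all 4 pRB+ libraries, below the 23.7 to 26.1 of the pRB- libraries, while SDHC overlaps.

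In complex I the median log2 difference was -0.10, with 29 of 36 genes negative and 1 called. NDUFB4, an accessory subunit of the membrane arm, measured 158 and 163 scaled FPKM in pRB+ AZD2811 cells and 164 and 176 in pRB+ control cells, against 176 and 185 in pRB- AZD2811 cells and 197 and 202 in pRB- control cells. Its pRB+ control replicate 2, at 176.4, lay just above pRB- AZD2811 replicate 1, at 175.8, so the groups overlapped. The means were 165 ± 7.86 in pRB+ and 190.1 ± 11.95 in pRB- cells (SD, n = 4 each), and the log2 difference was -0.20 ± 0.05 (SE; limma adjusted p = 0.0446). The adjusted p was 0.194 without the 3 rich libraries, with a log2 difference of -0.24, and 0.0857 in a fit of the 4 group means.

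The catalytic core of complex I was negative in all 7 genes, with a median log2 difference of -0.15; its accessory genes were negative in 22 of 29, with a median of -0.08. NDUFS7, which carries the last iron-sulfur cluster before ubiquinone, measured 57.1 and 67.1 scaled FPKM in pRB+ AZD2811 cells and 65.7 and 63.8 in pRB+ control cells, against 67.5 and 72.1 in pRB- AZD2811 cells and 74.5 and 72.1 in pRB- control cells. Its groups did not overlap, and the log2 difference was -0.17 ± 0.06 (SE; limma adjusted p = 0.098).

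NDUFS4, an accessory subunit known for its part in Leigh syndrome, had the most negative difference of all 80 genes. It measured 29.2 and 39.98 scaled FPKM in pRB+ AZD2811 cells and 34.7 and 41.5 in pRB+ control cells, against 40.1 and 48.3 in pRB- AZD2811 cells and 52.0 and 47.3 in pRB- control cells. The log2 difference was -0.37 ± 0.11 (SE; limma adjusted p = 0.0764), and the groups overlapped at 41.5 and 40.1. NDUFA6, whose 4 pRB+ values (26.1 to 29.1) lay below its 4 pRB- values (29.3 to 32.4), differed by -0.11 ± 0.05 in log2; NDUFA6-AS1, an antisense transcript, averaged 0.424 FPKM as deposited, and the counting is not stated to use strand. On the other side NDUFA5 was the most positive of complex I, with 5.77 to 5.93 scaled FPKM in pRB+ and 5.29 to 5.64 in pRB- cells and a log2 difference of 0.08 ± 0.04 (SE; limma adjusted p = 0.216).

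Complex III had a median log2 difference of -0.12 with 9 of 10 genes negative. The core gene UQCRC1 was the most negative, with 63.5 and 75.3 scaled FPKM in pRB+ AZD2811 cells and 71.9 and 66.1 in pRB+ control cells, against 73.4 and 82.4 in pRB- AZD2811 cells and 88.2 and 83.4 in pRB- control cells. Its log2 difference was -0.24 ± 0.08 (SE; limma adjusted p = 0.0795); the groups overlapped because pRB+ AZD2811 replicate 2 exceeded pRB- AZD2811 replicate 1. CYC1, the cytochrome c1 subunit that hands electrons on to cytochrome c, averaged 124 ± 10.3 in pRB+ and 144 ± 10.9 in pRB- cells (SD, n = 4 each), a log2 difference of -0.22 ± 0.08 (SE; limma adjusted p = 0.1). UQCR11, a small accessory subunit, was the only positive gene of the complex, at 0.05 ± 0.09 in log2.

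Cytochrome c had the most positive difference of the 80 genes, which did not pass the test. CYCS measured 32.1 and 34.6 scaled FPKM in pRB+ AZD2811 cells and 37.2 and 31.1 in pRB+ control cells, against 25.5 and 31.0 in pRB- AZD2811 cells and 30.7 and 30.3 in pRB- control cells. Each pRB+ library lay above each pRB- library, the nearest pair being 31.07 and 30.97. The means were 33.7 ± 2.76 in pRB+ and 29.4 ± 2.6 in pRB- cells (SD, n = 4 each), and the log2 difference was 0.19 ± 0.08 (SE; limma adjusted p = 0.147). With a term for the 3 rich libraries the log2 difference was 0.25 and CYCS passed the test.

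Complexes IV and V had the medians nearest to 0. In complex IV, 13 of 14 were negative with a median log2 difference of -0.07, and none passed the test. COX8A, the form of subunit 8 found in most tissues, measured 188 and 250.4 scaled FPKM in pRB+ AZD2811 cells and 239 and 241 in pRB+ control cells, against 231 and 288 in pRB- AZD2811 cells and 307 and 277 in pRB- control cells. Its log2 difference, the most negative of the complex, was -0.26 ± 0.11 (SE; limma adjusted p = 0.143), and the groups overlapped. NDUFA4L2 was the most positive, at 0.08 ± 0.12.

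In complex V, 8 of 15 genes were negative and the median log2 difference was -0.02, close to the -0.01 of all genes; it was 0.03 with a term for the 3 rich libraries and 0.03 with scaling by the summed FPKM, so no direction is given for this complex. ATP5B, the catalytic beta subunit, was the most negative. It measured 415 and 501 scaled FPKM in pRB+ AZD2811 cells and 481 and 463 in pRB+ control cells, against 452 and 545 in pRB- AZD2811 cells and 561 and 555 in pRB- control cells, with overlapping groups and a log2 difference of -0.18 ± 0.09 (SE; limma adjusted p = 0.202). ATP5I, a membrane subunit, was the most positive, at 0.09 ± 0.06 in log2 (SE; limma adjusted p = 0.382).

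The same comparison was made within each treatment, on 2 against 2 libraries, and the pair of comparisons shares no library. Under AZD2811 the median log2 difference of the 80 was -0.06, with 61 negative where 51.0% of all genes were, and 0 passed the test, against 0% of all genes lower and 0.00832% higher. Among control cells the median was -0.10, with 64 negative where 52.2% of all genes were, and 0 passed, against 0.0333% of all genes in each direction. Unadjusted p was under 0.05 for 1 member under AZD2811 and 6 in control cells, all lower, where 6.46% and 10.1% of all genes were lower at that level and 5.84% and 9.25% higher. Under AZD2811 the 2 pRB+ values lay below both pRB- values for 17 genes and above them for 2, against 20.9% and 21.3% of all genes. In control cells these counts were 46 and 5, against 31.1% and 26.4%. With FPKM as deposited the medians were 0.26 under AZD2811 and -0.46 in control cells, while those of all genes moved to 0.26 and -0.33, so the sign under AZD2811 depends on the scaling. With FPKM as deposited, 2 of the 80 were negative under AZD2811 and 80 in control cells, where 9.17% and 89% of all genes were.

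A gene's difference had the same sign in both treatments for 65 of the 80, negative for 55 and positive for 10; over all genes tested 79.7% had the same sign and 41.6% were negative in both. The count was 62 to 64 with the 3 other scalings and 2 with FPKM as deposited, where it was 18.5% of all genes. The signs themselves shifted with scaling by summed FPKM, where 38 of the 80 were negative in both treatments. With that scaling 46 were negative under AZD2811 and 48 in control cells, where 43.9% and 40.2% of all genes were. NDUFS4 had a log2 difference of -0.36 ± 0.17 under AZD2811 and -0.38 ± 0.17 in control cells (SE). For CYCS it was 0.24 ± 0.12 under AZD2811 and 0.15 ± 0.12 in control cells, and for SDHA -0.17 ± 0.06 under AZD2811 and -0.25 ± 0.06 in control cells. With FPKM as deposited SDHA turned to 0.15 under AZD2811 and CYCS to -0.20 in control cells. COX4I2, the lowest of the 80 in level, had the most unlike values, -0.25 ± 0.38 under AZD2811 and 0.21 ± 0.38 in control cells, with standard errors larger than either; with FPKM as deposited, the control value was -0.02. Whether the pRB difference depended on AZD2811 was tested directly, and 0 of the 80 passed, against 0.0166% of all genes in the positive and 0% in the negative direction. That test had an unadjusted p under 0.05 for 0 members, against 0.350% of all genes in the positive and 0.291% in the negative direction. Its value was negative for 26 of the 80, where it was for 47.1% of all genes.

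**Figure D4:**
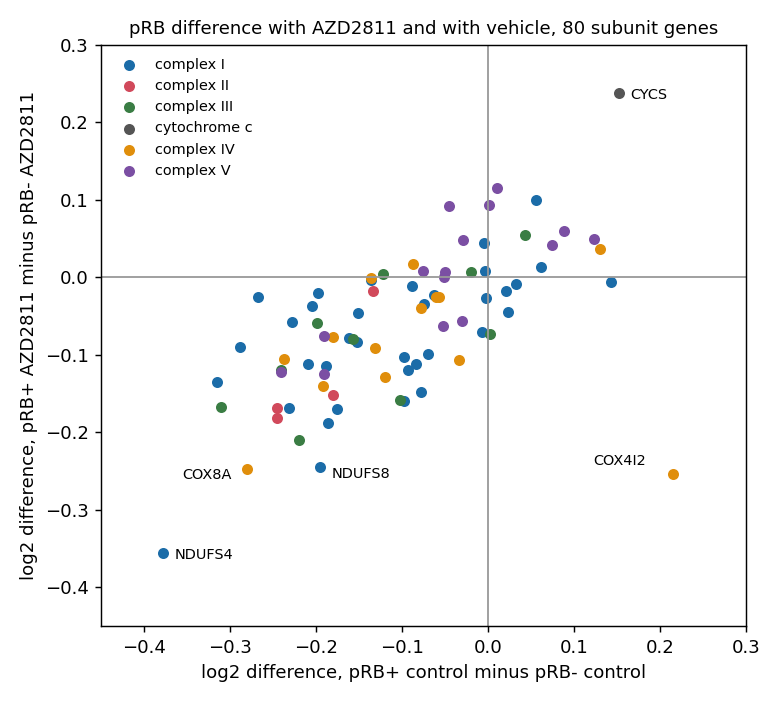
Log2 difference of pRB+ minus pRB- for each of the 80 subunit genes under AZD2811 (vertical) and in control cells (horizontal), coloured by complex; the 2 axes rest on different libraries. Of the 80 points, 55 lie in the lower left, with NDUFS4 at -0.36 under AZD2811 and -0.38 in control cells, and CYCS lies highest, at 0.24 and 0.15.

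The second comparison asks what AZD2811 did, with 4 AZD2811 against 4 control libraries and pRB as a second term. No subunit gene passed the test, and 0% of all 12013 genes did in either direction (limma, adjusted p under 0.05). Most subunit genes had small negative differences under AZD2811: 77 of 80 were negative, against 53.2% of all genes, with a median log2 difference of -0.10 against -0.01. The medians per library overlapped, from -0.15 to 0.08 in AZD2811 and from -0.02 to 0.15 in control libraries. Unadjusted p was under 0.05 for 6 genes, all lower, where 2.57% of all genes were lower and 0.974% higher at that level. These were NDUFB5, SDHD, COX6C, NDUFV2, NDUFB3 and ATP5J2, named because they are so few. The rich libraries moved with these differences: without them the median was -0.02 with 51 of 80 negative, with a term for them it was -0.07 with 74 of 80 negative, and without pRB- AZD2811 replicate 1 alone it was -0.05. Complex IV turned to a median of 0.01 without the rich libraries, and the scaling by summed FPKM gave -0.06 for the 80.

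NDUFB5, an accessory subunit of complex I, had the most negative AZD2811 difference. It measured 73.8 and 84.1 scaled FPKM in pRB+ AZD2811 cells, against 87.0 and 92.2 in pRB+ control cells, and 77.3 and 97.1 in pRB- AZD2811 cells, against 112 and 111 in pRB- control cells. The AZD2811 libraries were lower within each pRB state, while the 4 AZD2811 and 4 control values overlapped across them, and the log2 difference was -0.27 ± 0.09 (SE; limma unadjusted p = 0.0155, adjusted p = 0.964). ATP5J2, a membrane subunit of ATP synthase, was the gene whose 4 AZD2811 values, 193 to 211, lay wholly below its 4 control values, 213 to 238, as did 0.574% of all genes; none lay wholly above, against 0.358% of all genes. Its log2 difference was -0.12 ± 0.05 (SE; limma unadjusted p = 0.0445, adjusted p = 0.964).

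By complex, the median AZD2811 difference lay between -0.12 in complex II and -0.09 in complex IV, in log2, and complexes I, III and V had -0.10, -0.10 and -0.11. Without the rich libraries these medians were -0.02 in complex I, -0.08 in II, -0.03 in III, 0.01 in IV and -0.02 in V. Within pRB+ cells, AZD2811 gave a median of -0.07 over the 80 with 75 negative where 52.2% of all genes were; within pRB- cells it gave -0.12 with 74 negative where 53.5% were. No member passed in either, against 0.00832% and 0.0333% of all genes lower and 0% higher in both. Unadjusted p was under 0.05 for 1 member in pRB+ cells and 2 in pRB- cells, all lower, where 0.499% and 1.78% of all genes were lower and 0.183% and 0.916% higher. The replicates of a group differed by a median of 0.146 in log2 in pRB+ AZD2811 cells and 0.188 in pRB- AZD2811 cells, more than either median, and by 0.0908 in pRB+ control and 0.0697 in pRB- control cells. NDUFA4L2 was the most positive of the 80 under AZD2811, with 1.93, 3.27, 2.45 and 2.45 scaled FPKM in AZD2811 libraries against 1.74, 2.33, 1.74 and 1.79 in control libraries, which overlapped, and a log2 difference of 0.28 ± 0.12 (SE; limma adjusted p = 0.964).

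**Figure D5:**
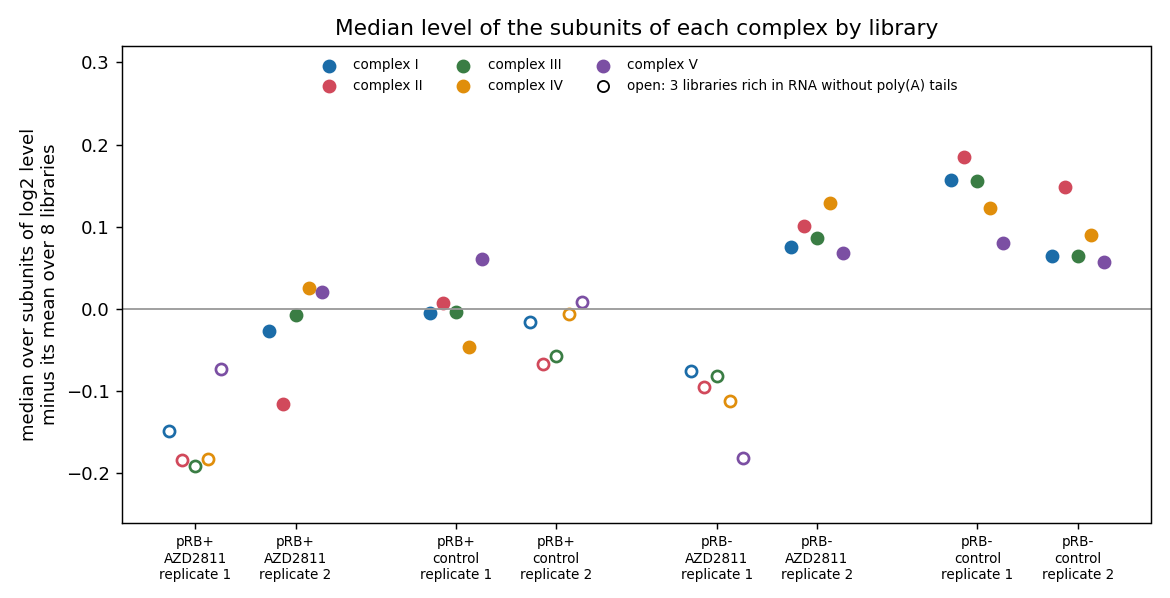
Median over the subunits of each complex of the log2 level minus its mean over the 8 libraries, by library; open points mark the 3 libraries rich in RNA without poly(A) tails. Over all 80 genes the median ran from -0.15 in pRB+ AZD2811 replicate 1 to 0.15 in pRB- control replicate 1, and pRB- AZD2811 replicate 1 lay at -0.11 while replicate 2 of the same group lay at 0.08.

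Genes that work beside the subunits were set next to them, from lists that were drawn up with earlier results of these data known. Of 48 assembly factors, 5 fell and 2 rose in pRB+ cells, against 5.81% and 5.35% of all genes, with a median log2 difference of -0.00336. C6orf57, the table's name for SDHAF4, which helps SDHA to join SDHB, measured 2.53 and 4.02 scaled FPKM in pRB+ AZD2811 cells and 3.21 and 4.12 in pRB+ control cells, against 5.13 and 6.36 in pRB- AZD2811 cells and 8.98 and 8.26 in pRB- control cells. Each pRB+ library was below each pRB- library, with a log2 difference of -0.86 ± 0.14 (SE; limma adjusted p = 0.0262). COX17, the copper chaperone of complex IV, averaged 86.0 ± 10.1 in pRB+ and 109.8 ± 4.67 in pRB- cells (SD, n = 4 each), with a log2 difference of -0.35 ± 0.06 (SE; limma adjusted p = 0.0266). UQCC2 of complex III, PET117 of complex IV and ECSIT of complex I, all assembly factors, also fell, by 0.48, 0.44 and 0.29 on the log2 scale.

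TIMMDC1, an assembly factor of the membrane arm of complex I, rose to 31.9 ± 1.69 scaled FPKM in pRB+ cells, against 23.7 ± 1.92 in pRB- cells (SD, n = 4 each), with a log2 difference of 0.41 ± 0.07 (SE; limma adjusted p = 0.0262). LYRM7, which serves the iron-sulfur protein of complex III, rose by 0.40 ± 0.10 in log2. Of 17 genes of the citrate cycle and pyruvate dehydrogenase, 15 were negative, with a median of -0.08, and 1 fell: SUCLG2, a subunit of succinyl-CoA ligase, with 6.4 ± 0.749 scaled FPKM in pRB+ and 9.02 ± 1.61 in pRB- cells (SD, n = 4 each) and a log2 difference of -0.43 ± 0.06 (SE; limma adjusted p = 0.0247). Without the 3 rich libraries these 8 genes no longer passed, with 1 call left over all genes, and kept their directions. Of 13 regulators of mitochondrial genes, 11 were tested and none passed. TFB2M, a factor for transcription of mitochondrial DNA, had the smallest p of these, with 13.6 ± 1.41 scaled FPKM in pRB+ and 11.2 ± 0.956 in pRB- cells (SD, n = 4 each) and a log2 difference of 0.25 ± 0.09 (SE; limma adjusted p = 0.1). NRF1 itself measured 3.61 to 3.98 scaled FPKM in pRB+ and 3.44 to 4.56 in pRB- cells, and TFAM, which packages mitochondrial DNA, 11.8 to 13.9 in pRB+ and 9.13 to 12.6 in pRB- cells. Under AZD2811 none of the genes in the 3 lists passed, and their medians were -0.05 for assembly factors, -0.06 for the citrate cycle and -0.06 for regulators.

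Promoters, taken as 250 bases before the start to 50 after it, were found for 64 of the 80 genes and searched on both strands. The NRF1 motif matched 15 of the 64, or 23.4%, against 12.7% of tested genes and 5.78% of all 35116 listed promoters. The YY1 motif (AANATGGCG) matched 16, or 25%, against 7.62% and 3.19%. A match after the start was held by 14 of the 64, or 21.9%, against 4.97% of tested genes. This motif contains ATG, the letters of a start codon, and matches after the start were not checked against where translation begins. The ETS motif (CCGGAAGT) matched 9, or 14.1%, against 9.51% and 4.14%, and the motif of oestrogen-related receptors (TCAAGGTCA) matched 1, SDHD, against 0.203% and 0.353%. The YY1 motif was found in 5 of the 6 complex I core genes with a promoter, and NRF1 in 4 of 7 genes of complex III, 2 of 3 of complex II, 6 of 31 of complex I, 3 of 11 of complex V and 0 of 11 of complex IV.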

How the data were processed

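RNA of 8 NCI-H82 libraries was measured, 500 ng each, by a stranded total RNA protocol, per the labels. FPKM are the values the authors deposited for each gene. Per the submitters' processing notes, which give neither role nor order, the tools were Cufflinks 2.2.1 and STAR 2.5.1b and the build was hg19. The gene annotation is not given in the sources used here. Rows whose names had turned into dates, 28 of 25365, were dropped. Each library was scaled to the geometric mean of all 8 by a trimmed mean of log ratios over 15732 genes, with 30% of the ratios and 5% of the levels cut from either end (factors 0.455 to 1.33). Genes of at least 1 mean scaled FPKM, 12013, were tested with limma 3.58.1 in R 4.3.3 (trend, log2 of scaled FPKM plus 1, Benjamini-Hochberg adjusted p under 0.05), which understates changes of low genes. The fit of the 4 against 4 comparisons had pRB and AZD2811 terms (5 residual degrees of freedom); the others used 4 group means (4 degrees of freedom). The depth estimate gives counting error only. Subunits encoded by mitochondrial DNA were not analysed here. The fits were run on simulated data with independent noise for each gene and library. These held no shift shared by many genes of a library, so they do not show how the fits behave under one.

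The members and lists were chosen with earlier results of these data known. Named genes were those that passed a 4 against 4 test (at most 8 a direction), the 3 highest and 3 lowest in level, the extremes of each complex, isoform sets, the SDH genes, CYC1, CYCS, and at most 4 a list by p; NDUFS7, NDUFA6, UQCC2, ECSIT, LYRM7, NRF1, TFAM and genes with a low p under AZD2811 were chosen after their values were seen. Alternatives were median-ratio and summed-FPKM scaling, unscaled FPKM, no filter, no small RNA genes (282), a pseudocount of 0.1, a replicate block, a term for or removal of the libraries with RMRP above 1000, a change of 0.5 or more in log2, group means and each library left out; a trimmed mean over genes of at least 1 FPKM was added after seeing the data. Leaving out a library kept the scaling factors of all 8. Promoters came from RefSeq on GRCh38.p14, the first listed for each of 10 genes with several; the 16 genes without an entry were not searched. Lengths came from GENCODE 29, as the median over all protein-coding transcripts of a gene. Figures used Python 3.11.15 and matplotlib 3.10.9.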

Additional observations from a re-analysis of the deposited data

Results flagged for a closer look

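Among 62 sets of 4 libraries examined (4 of the same pRB state, 1 gene each), 3 held a library far from the others, and chance alone gives about 1 in 20. CYCS measured 25.5 scaled FPKM in pRB- AZD2811 replicate 1, with the other 3 pRB- libraries between 30.3 and 31.0. ATP5B measured 452 scaled FPKM in that library, with the other 3 between 545 and 561. COX7C measured 445.2 scaled FPKM in pRB+ AZD2811 replicate 1, with the other 3 pRB+ libraries between 551 and 572. Both libraries are among the 3 rich in RNA without poly(A) tails; the part of this in the 3 values was not tested.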

How the results depend on the processing

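The count of 2 subunit genes that passed in 4 pRB+ against 4 pRB- libraries became 0 with FPKM as deposited, with scaling by the sum of FPKM without small RNA and histone genes, without the 3 rich libraries, with a required change of 0.5 in log2 and in the fit of 4 group means; it became 1 with no filter, 4 with the term for rich libraries, and 0 to 5 with each library left out. It was 2 or 3 with the other settings run. Calls over all genes, 1341, became 143, 542, 1, 209 and 4 under the first 5 of these and 744 with no filter. Those in the fit with the term for rich libraries are not given here. The cause was not tested. The AZD2811 median of -0.10 became -0.49 with FPKM as deposited, where that of all genes was -0.34; with each library left out it ranged from -0.13 to -0.05, and the pRB median from -0.13 to -0.04. Scaling by summed FPKM gave a pRB median of -0.03, against 0.04 over all genes. Member counts of the other comparisons were 0 under each setting run. The 4 against 4 values of a chosen part of the named genes were also followed under the alternatives. None of these values reversed, 581 kept their side of the threshold, 110 lost their call and 9 gained one. The 581 include values of genes that had no call to lose, among them all those followed under AZD2811. They are therefore no measure of how stable the calls were. Named genes left out of this check included UQCR11, NDUFA4L2, COX4I2, TFB2M and NDUFAB1. With the replicate number as a block the count was 3, NDUFS4 being added; the numbers were not taken as pairs, since 1 of 6 correlations between deviations of same-numbered libraries was -0.108, with the other 5 at 0.119 to 0.511, and the series text does not explain its names for the 2 replicates or tie them to the numbers. In the comparison of AZD2811 effects the groups compared are all 4, so a fit of only those groups is not another setting there.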

Other observations

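NDUFAB1, the mitochondrial acyl carrier protein that is also part of complex I, lies outside the name rule. It averaged 118 ± 9.16 scaled FPKM in pRB+ and 122 ± 16.9 in pRB- cells (SD, n = 4 each), a log2 difference of -0.04 ± 0.10 (SE; limma adjusted p = 0.811). ATP5SL, a gene set aside since its protein is known as an assembly factor of complex I, averaged 23.1 ± 2.2 in pRB+ and 28.6 ± 3.51 in pRB- cells (SD, n = 4 each), a log2 difference of -0.29 ± 0.10 (SE; limma adjusted p = 0.0889). Both were chosen after their values were seen.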
